A study of Mus musculus with 3 samples.

Results

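Plec, Macf1 and Dst encode plectin, microtubule-actin crosslinking factor and dystonin, 3 giant cytolinkers of the plakin family. They were chosen by name with their numbers of predicted m6A sites known, and their sites are all entries of the deposited list that lie inside the span of 1 of the 3 genes on the same strand. This gave 93 of the 19301 sites in the list, or 0.482%. The 3 genes stand among 5172 annotated genes with a site, of which 5080 are protein-coding. The samples come from RAW264.7, an established macrophage line of the mouse, kept without treatment, and all share this single condition. The series text calls the line human, while the organism label names mouse, and all 19301 positions read as A in the mouse genome GRCm38. Poly(A)+ RNA of 3 biological replicates was profiled by miCLIP2, in which an antibody against m6A is crosslinked to RNA by UV light and leaves truncation events and C-to-T transitions in the cDNA. The machine learning model m6Aboost then scored peaks at A, and the sites with a score above 0.5 were deposited as 1 list pooled over the replicates. Of 10 macrophage marker genes, 6 held at least 1 site, beside 5080 of all 21951 protein-coding genes (23.1%). Csf1r, the receptor for the macrophage growth factor, held 11 sites, whereas Adgre1, Cd68, Itgam and Mertk held 0. The list gives no read counts and no expression, so the depth behind each site is unknown, no spread between replicates could be computed, and a transcript of low abundance cannot be told apart from an unmethylated one.

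Plakins tie the parts of the cytoskeleton to each other and to cell junctions. Plectin binds intermediate filaments through the plakin repeats of its C-terminal tail, has an actin-binding domain at its N terminus, and dimerises through a coiled-coil rod between them. Macf1 and Dst are spectraplakins, in which long arrays of spectrin repeats lead to a C-terminal domain that binds microtubules, and some of their isoforms also carry plakin repeats. N6-methyladenosine is laid down by the METTL3-METTL14 methyltransferase at DRACH motifs, where D is A, G or T, R is A or G and H is A, C or T. It is known to lie mostly in long exons and around stop codons.

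The sites with the highest scores in each gene are shown first, because they place the strongest predictions of the 3 transcripts in their sequence. Each line gives 21 nt of GRCm38 on the transcribed strand, 5′ to 3′, and the capitals mark the 5 bases centred on the predicted A. The Plec windows lie at chr15:76176819-76176839, chr15:76172942-76172962 and chr15:76171285-76171305, the Macf1 windows at chr4:123434787-123434807 and chr4:123433190-123433210, and the Dst window at chr1:34201132-34201152. Plec and Macf1 are transcribed from the minus strand and Dst from the plus strand.
Plec codon 3139: tcagccacGAACTctaccagc
Plec codon 4432: ggacacagAGACTctggagaa
Plec 3′ UTR: aggcccagGGACTcttcaagc
Macf1 codon 4714: tgtgccaaGAACTctcactgc
Macf1 codon 4837: agagaaaaAGACTttacaaaa
Dst codon 4049: ccgagcaaGAACTggcgaacc
Their scores were 0.955, 0.946 and 0.938 in Plec, 0.904 and 0.891 in Macf1, and 0.822 in Dst, in the order shown. The top sites of Plec and Macf1 both read GAACT, with the A at the last base of a glutamate codon, and their windows shared 15 of 21 bases. These include the 5 bases of the motif, and 4278 pairs of site windows were compared. The Plec site lies in the exon of the plakin repeats and the Macf1 site in an exon of the spectrin repeats. No shared feature is read from this likeness.

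Plec held 66 sites, Macf1 26 and Dst 1. With a site counted for every gene whose span holds it, Plec ranked 3 and Macf1 8 by number of sites, which describes how they were chosen and is no finding. The scores had a median of 0.750 in Plec (quartiles 0.636 and 0.820, range 0.508 to 0.955) and of 0.748 in Macf1 (quartiles 0.643 and 0.821, range 0.515 to 0.904), close to the median of 0.734 over the list. The score measures how sure the model is of a site and is not a methylation level. Scores of at least 0.9 were reached by 3 sites of Plec and 1 of Macf1, and 8 sites of Plec and 3 of Macf1 lay below 0.55. DRACH motifs held 59 of the 66 Plec sites, 89.4% (95% Wilson interval 79.7 to 94.8%), all 26 Macf1 sites (87.1 to 100%) and the Dst site, against 91.9% of the list (91.6 to 92.3%). These intervals cover counting error only, and sites on 1 transcript are not replicates. No site lay in a member gene on the opposite strand, and none of the 93 lay in another gene on the same strand.

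Each site was placed on the transcript with the longest CDS of its gene in GENCODE M21. Plec (ENSMUSG00000022565.15, chromosome 15, 76170974 to 76232574, minus strand) has 22 annotated transcripts, and the one used has 33 exons and 4691 codons. Macf1 (ENSMUSG00000028649.18, chromosome 4, 123349633 to 123684360, minus strand) has 16 transcripts, and the one used has 98 exons and 7355 codons. Dst (ENSMUSG00000026131.18, chromosome 1, 33908225 to 34308661, plus strand) has 20 transcripts, and the one used has 103 exons and 7717 codons. Of the 66 Plec sites, 64 were exonic, with 60 in coding sequence and 4 behind the stop codon. Of the 26 Macf1 sites, 25 lay in exons and all 25 were in the CDS. The Dst site also lay in the CDS. No site of the 3 genes fell in a 5′ UTR.

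**Figure D1:**
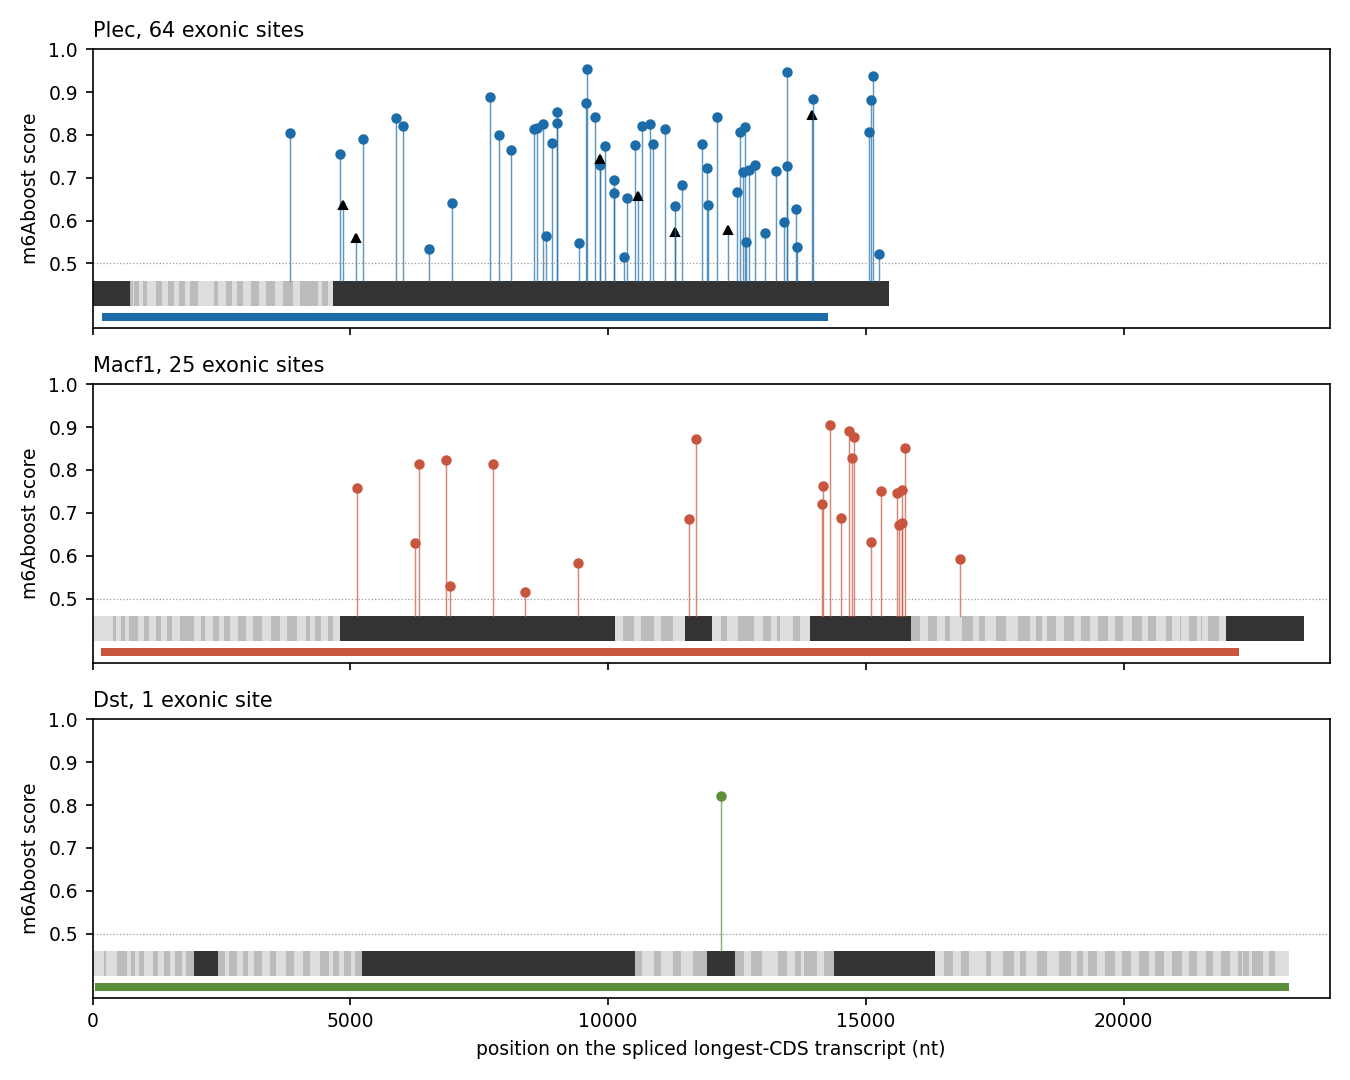
Predicted m6A sites on the spliced longest-CDS transcripts of Plec, Macf1 and Dst, with position in nt on the x axis and the m6Aboost score on the y axis. Circles are DRACH sites, black triangles non-DRACH sites, dark boxes exons of at least 400 nt, light boxes shorter exons, the coloured bar below them the CDS, and the dotted line the deposited score threshold of 0.5. Of the 64 Plec sites, 63 lie on the 2 long exons at its 3′ end, the 25 Macf1 sites on 4 long exons and 1 short exon in its middle, and Dst has 1 site.

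The sites sat on few exons. In Plec, 53 sites lay in the last exon, 10 in the exon before it and 1 in exon 26, and the other 30 exons held none. In Macf1, 11 sites lay in exon 57, 8 in exon 36, 3 in exon 56, 2 in exon 44 and 1 in exon 63, and the other 93 exons held none. In Dst, exon 47 held the single site and the other 102 exons none. Exons of at least 400 nt held 63 of the 64 exonic Plec sites (98.4%, 91.7 to 99.7%) and 24 of the 25 exonic Macf1 sites (96.0%, 80.5 to 99.3%). Such exons held 73.2% of all DRACH A of the Plec transcript but only 38.8% of those of the Macf1 transcript. Over all protein-coding genes with a site, they held 89.9% of exonic sites and 61.0% of DRACH A.

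**Figure D2:**
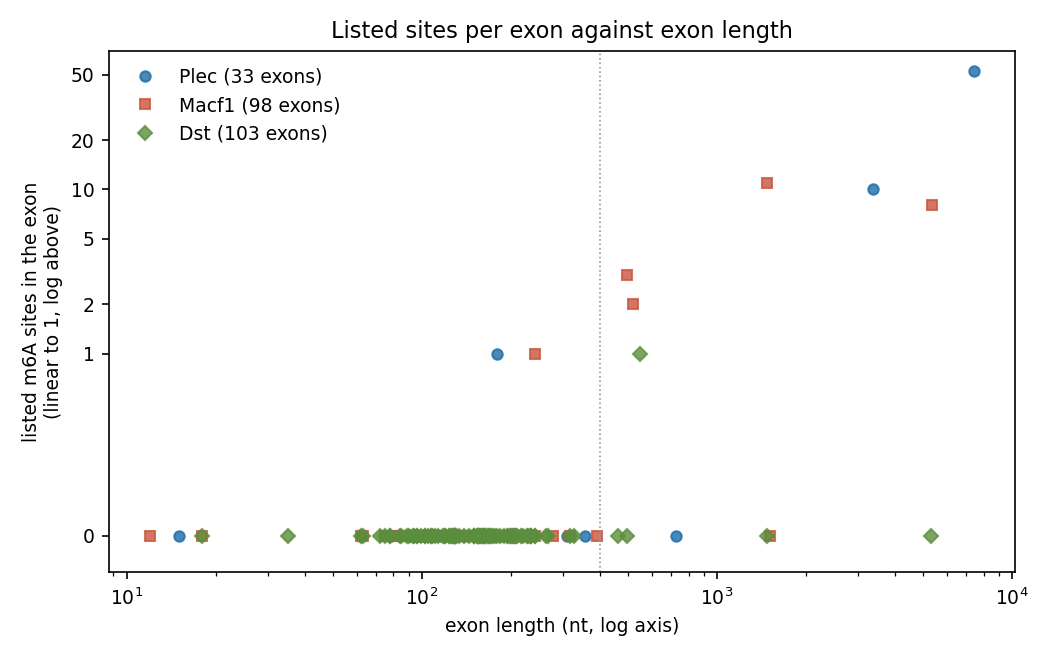
Number of listed m6A sites in each exon (y axis, linear to 1 and logarithmic above) against exon length in nt (logarithmic x axis) for the 33 exons of Plec, the 98 of Macf1 and the 103 of Dst. The dotted line marks 400 nt. All exons with more than 1 site lie to its right, and the 5292-nt exon of Dst, the 1472-nt exon of Dst and the 724-nt first exon of Plec lie at 0.

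To set the sites against the motifs at hand, the share of DRACH A that was listed was computed for each gene, beside the share over all protein-coding genes with a site. In the CDS of Plec, 53 of 241 DRACH A were listed, or 22.0% (17.2 to 27.6%), against 4.54% over all genes with a site. The members were chosen on their numbers of sites, so nothing is read from this total, and the split within each transcript is the point of interest. In exons under 400 nt before the last, 1 of 72 DRACH A of Plec was listed (1.39%), 1 of 371 of Macf1 (0.270%) and 0 of 351 of Dst, against 0.967% over all genes with a site. In exons of at least 400 nt before the last, 8 of 41 were listed in Plec (19.5%, 10.2 to 34.0%), 24 of 198 in Macf1 (12.1%, 8.28 to 17.4%) and 1 of 223 in Dst (0.448%), against 10.0% over all. In the CDS of the last exon, 44 of 128 were listed in Plec (34.4%, 26.7 to 43.0%), 0 of 8 in Macf1 and 0 of 6 in Dst, against 12.8% over all. In the 3′ UTR, 4 of 26 were listed in Plec (15.4%, 6.15 to 33.5%) and 0 of 31 in Macf1, against 4.96% over all. The Dst transcript used has no annotated 3′ UTR. On each of the 2 other Dst transcripts tried, 0 of 23 DRACH A in the 3′ UTR were listed.

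**Figure D3:**
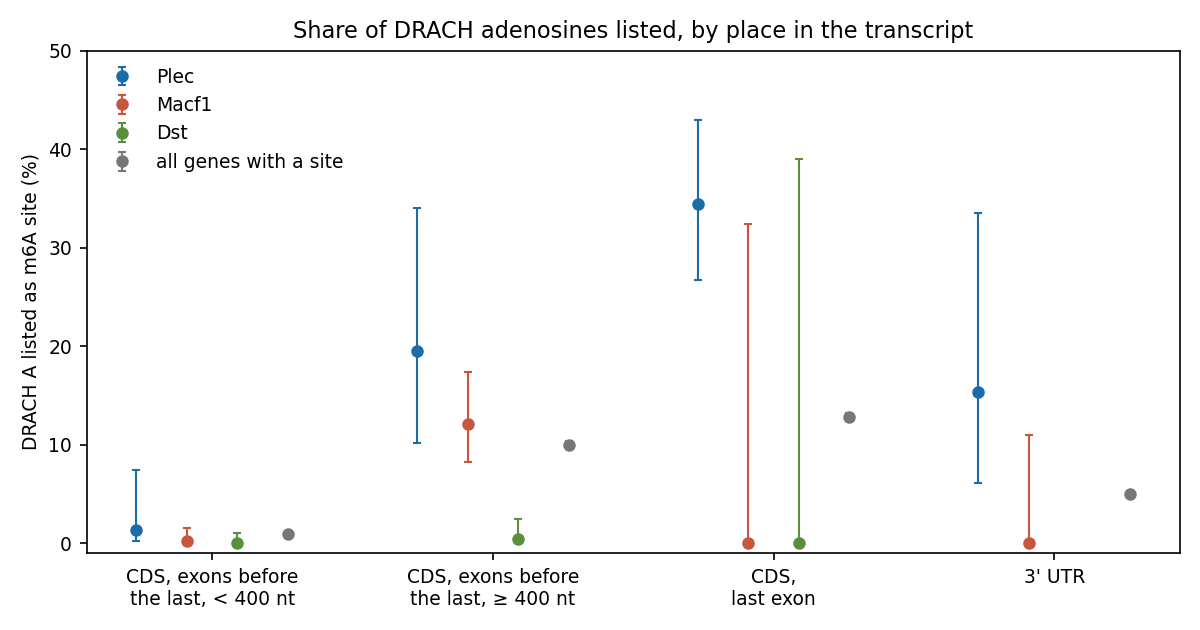
Percent of DRACH A listed as m6A sites in 4 parts of the transcript for Plec, Macf1, Dst and all protein-coding genes with a site, with 95% Wilson intervals. In exons under 400 nt the 3 genes and all genes lie between 0 and 1.39%, while in longer exons Plec and Macf1 stand at 19.5% and 12.1% and Dst at 0.448%. The 3′ UTR of Dst is left out because its transcript has none.

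Distance to the nearest exon junction gave a like picture. Within 100 nt of a junction, 2 of 73 CDS DRACH A of Plec, 3 of 381 of Macf1 and 0 of 369 of Dst were listed, beside 1859 of 143074 over all genes with a site. Farther than 400 nt from any junction, 48 of 148 were listed in Plec (32.4%, 25.4 to 40.3%) but 9 of 135 in Macf1 (6.67%, 3.55 to 12.2%) and 0 of 131 in Dst (interval up to 2.85%), against 11.1% over all. From over 200 to 400 nt, 9 of 32 were listed in Macf1 (28.1%, 15.6 to 45.4%) and 16.1% over all genes, the highest share by distance in both. In Plec this was not so, with 1 of 10 listed there (10.0%, 1.79 to 40.4%). In Dst 1 of 35 was listed (2.86%), its only site. Only 5 exons of the Macf1 transcript and 3 of the Plec transcript reach 400 nt, so these shares rest on few exons.

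The last exon of Plec, which encodes the plakin repeats and the end of the tail and carries the 3′ UTR, runs over 7412 nt (chr15:76170974-76178385). Its 6216 nt of CDS held 49 sites, or 7.88 sites per 1000 nt, with gaps between neighbouring sites of 7 to 442 nt and a median gap of 99 nt. The sites ran through the whole CDS part of the exon. Cut into 5 equal stretches from 5′ to 3′, its CDS held 8, 12, 8, 12 and 9 sites, on 24, 24, 30, 28 and 22 DRACH A. The listed share of DRACH A was lowest in the middle stretch (6 of 30) and highest in the stretch before it (11 of 24). The scores in this CDS ran from 0.516 to 0.955 with a median of 0.730, near the median of 0.710 for last-exon CDS sites of all genes.

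Listing differed by pentamer in the CDS of the last Plec exon. Plec was chosen on its number of sites, and 34.4% of all DRACH A in this CDS were listed, against 12.8% over all genes. A pentamer share above that of all genes is thus no finding, and the order of the pentamers is what is described. GGACA was listed at 9 of 10 positions (90.0%, 59.6 to 98.2%), against 24.1% of GGACA in the last-exon CDS of all genes with a site. GGACC was listed at 10 of 19 (52.6%, 31.7 to 72.7%) against 14.1%, TGACT at 4 of 5 against 18.2%, AAACT at 3 of 3 against 17.4%, AGACT at 5 of 8 against 26.6%, GAACT at 3 of 4 against 33.8% and GGACT at 3 of 5 against 39.7%. The motifs that are seldom listed elsewhere had few listed positions here. TGACC was listed at 0 of 21 positions (interval up to 15.5%) against 0.875%, TGACA at 0 of 9 against 3.31%, and AGACC at 1 of 14 against 2.94%. GAACC was listed at 2 of 11 against 4.18%, AGACA at 1 of 4 against 6.57% and GAACA at 2 of 7 against 7.77%, counts too small to place these shares closely. GGACT, the most frequent pentamer of the list with 19.4% of its sites, made up 9.09% of the Plec sites, while GGACC made up 15.2% of them against 6.93% of the list. The model reads the 21 nt around the A, so the part of the model in these motif shares was not tested.

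The plakin repeats arose by duplication, and the exon holds stretches that look alike at the nucleotide level. The closest look-alikes among the sites are 2 stretches of 29 nt that each carry a pair of sites 8 nt apart, shown because the same pair was called in both copies. They lie at chr15:76176305-76176333 and chr15:76172942-76172970, and the capitals mark both pentamers.
Plec codons 3308 and 3311: ggctacctGGACAaagAGACTaacagggc
Plec codons 4429 and 4432: ggcatcctGGACAcagAGACTctggagaa
The first stretch scored 0.665 at GGACA and 0.694 at AGACT, and the second 0.728 and 0.946. Over the 21 nt around GGACA the copies shared 18 bases. The AGACT of the second copy was thus 1 of the 3 highest sites of the gene, whereas that of the first copy lay below the median of the gene.

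Other copies were listed on 1 side only, or on neither. The following 21-nt windows of the last exon are shown because they set a listed against an unlisted copy, and then a pair of identical copies. They lie at chr15:76173757-76173777, chr15:76177468-76177488, chr15:76177183-76177203 and chr15:76175206-76175226.
Plec codon 4160, listed: ggctacaaGGACCcctactct
Plec codon 2923, not listed: ggctacaaGGACCcctataca
Plec codon 3018, not listed: tgtgtggaGGACCccgagacc
Plec codon 3677, not listed: tgtgtggaGGACCccgagacc
The copy at codon 4160 scored 0.819, and its look-alike at codon 2923 shared 18 of 21 bases. The windows at codons 3018 and 3677 lie in the longest exact repeat of the exon, 64 nt that begin at codons 3008 and 3667 and hold 2 DRACH A and 0 listed sites in either copy. The authors kept only reads that map to a single place, and a read that lies wholly within this repeat fits both copies. The part of this step in the missing sites was not tested. When all pairs of the 128 DRACH A of this CDS were compared, 93 pairs shared at least 14 of 21 bases, the motif included. Windows of a Plec and a Macf1 site also reached 14 and 15 shared bases, so such pairs need not be copies. Both members were listed in 10 of the 93 pairs, 1 member in 26 and neither in 57. The pairs involved 78 DRACH A, of which 27 were listed, beside 44 of all 128.

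Around the stop codon of Plec no site was listed. The last site of the CDS lay 292 nt before its end and the first site of the 3′ UTR 807 nt after it. This gap of 1099 nt was the longest between neighbouring exonic sites of Plec, ahead of 972 and 745 nt, and it held 16 DRACH A, of which 15 lay in the 3′ UTR. Among these 16, GGACT was missing, while GAACT occurred 1 time, as did GGACA and as did AGACT. Within 200 nt of the stop codon there were 0 sites in Plec on 7 DRACH A, 0 in Macf1 on 7 and 0 in Dst on 5. Over all genes with a site, 12.8% of DRACH A in this window were listed, and the window held 32.4% of exonic sites. At that share 7 DRACH A are too few to show a difference, and for the 15 DRACH A of the gap in the 3′ UTR the share over all genes is 4.96%. The 4 sites of the Plec 3′ UTR were packed into 196 nt, where 4 of 7 DRACH A were listed, with scores of 0.808, 0.881, 0.938 and 0.521 from 5′ to 3′.

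The exon before the last in Plec, 3381 nt long (chr15:76178519-76181899), encodes the coiled-coil rod. Its 10 sites amounted to 2.96 per 1000 nt, fewer than in the last exon, but 8 of its 31 DRACH A were listed (25.8%, 13.7 to 43.2%), a share whose interval overlaps that of the last exon at 31.2% (24.4 to 38.9%). Of the 10 rod-exon sites, 5 read GAACT with a leucine codon next. DRACH A that close a GAA glutamate codon were listed at 5 of 5 positions in the rod exon and at 4 of 11 in the CDS of the last exon, beside 12.1% in long exons before the last and 17.9% in last exons of all genes. DRACH A in the middle of a GAC aspartate codon were listed at 0 of 9 and 19 of 55 positions, beside 11.5% and 14.9%. At the start of an ACT threonine codon 1 of 2 and 8 of 11 were listed, beside 19.2% and 25.7%. At ACC threonine codons the counts were 0 of 2 and 1 of 22, beside 100 of 3701 and 118 of 3267. Counts of this size in the rod exon set no difference between the exons, which was not tested. The shares over all genes are given for scale only, since Plec was chosen on its number of sites. Over the whole CDS of Plec, the glutamate-leucine pair carried 9 sites on 12 such DRACH A, more sites than any other pair of residues. In the same CDS 33.3% of sites (22.7 to 45.9%) sat at the third codon base, against 18.3% of DRACH A (13.9 to 23.6%). For Macf1 these shares were 44.0% (26.7 to 62.9%) and 29.1% (25.6 to 33.0%), and for all genes 26.5% and 22.4%.

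Of the 7 non-DRACH sites, all of them in Plec, 5 read GGACG, 1 ATACT and 1 GAACG. The GGACG sites had a median score of 0.657 and reached 0.847 at codon 4592, a site that stood 9 nt before a GGACC site of score 0.885. Both are shown because a non-DRACH and a DRACH site stand side by side with high scores, at chr15:76172452-76172481.
Plec codons 4592 and 4595: tcctacaaGGACGctctGGACCgtagcatg
Over all exonic Plec sites, 44 of 64 had a neighbour within 100 nt (68.8%, 56.6 to 78.8%). The share was 56.0% in Macf1 (14 of 25, 37.1 to 73.3%) and 60.0% over all genes, within both intervals.

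Plec is known for its many first exons, which give isoforms with different N termini. The sites lie downstream of them. All 64 exonic sites were shared by 13 of the 22 annotated Plec transcripts, so the list cannot tell these 13 apart. Plec-211 held 25 of the sites, and 8 shorter transcripts held none. Plec-211 lacks the rod exon and also all listed sites of the last exon beyond codon 3565. The 2 sites outside exons lay in intron 31, just before the rod exon, and in the exons of 0 annotated transcripts. They are printed because both scored close to the threshold of 0.5, and they lie at chr15:76182236-76182256 and chr15:76181984-76182004.
Plec intron 31, first site: ttcaggcaGGACTgtggtggg
Plec intron 31, second site: gtccaagtGAACTgtggtggt
Their scores were 0.508 and 0.521, and they stood 347 and 95 nt before the rod exon.

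In Macf1 most sites fell in exon 36 and in the neighbouring exons 56 and 57. Exon 36, 5331 nt long (chr4:123471007-123476337), is the large exon that encodes the plakin repeats of the longer Macf1 isoform, and it held 8 sites on 140 DRACH A, or 5.71% (2.92 to 10.9%). Of these sites 4 read AGACT, 3 read GAACT and 1 read GGACT, with scores of 0.515 to 0.823. This exon is present in 4 of the 16 annotated transcripts, and the 8 listed sites can come only from RNA that holds its sequence. Exons 56 and 57, of 496 and 1472 nt, lie in the spectrin repeats and held 3 sites on 11 DRACH A (27.3%, 9.75 to 56.6%) and 11 on 36 (30.6%, 18.0 to 46.9%). The interval of exon 57 lies above that of exon 36, although exon 36 is the longer of the pair. The 11 sites of exon 57 had scores of 0.633 to 0.891. Exon 44, of 519 nt, held sites of 0.685 and 0.873, and exon 63, of 242 nt, held 1 site of 0.593. The last exon, 1513 nt long and with most of its length in the 3′ UTR, held 0 sites on 39 DRACH A. In the Macf1 CDS, GGACT was listed at 6 of 26 positions (23.1%), AGACT at 6 of 34 (17.6%, 8.35 to 33.5%) and GAACT at 5 of 49 (10.2%, 4.44 to 21.8%), beside 16.1%, 9.80% and 11.6% in the CDS of all genes with a site. A further site of score 0.548, at AGACT, lay in intron 61 of the transcript used but in the CDS of 3 other annotated transcripts.

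Dst is the closest relative of Macf1, and their proteins aligned over 7140 columns with 47.9% identical residues. The single Dst site, at position 34201142 of chromosome 1, lay in exon 47 of 546 nt, 273 nt from the nearest junction, at the glutamate of codon 4049, followed by leucine. This exon matches exon 44 of Macf1, in which the nearest site lay 21 codons from the aligned position. There the aligned Macf1 bases read GAGCT, which is no DRACH motif. The Macf1 exon holds a site of the same pentamer, shown beside the Dst window because both are GAACT at a glutamate-leucine pair of matching exons, at chr4:123456530-123456550.
Macf1 codon 3843: tacgagatGAACTgcagaagt
Dst codon 4049: ccgagcaaGAACTggcgaacc
The scores were 0.873 for Macf1 and 0.822 for Dst. The other long exons of Macf1 with sites have counterparts in Dst of nearly the same length. Exon 39 of Dst (5292 nt, against exon 36 of Macf1, 27.4% identical residues) held 0 sites on 131 DRACH A. Exon 59 (496 nt, against exon 56 of the same length, 41.2% identical) held 0 on 16, and exon 60 (1472 nt, against exon 57 of the same length, 41.4% identical) held 0 on 45. Of the 25 CDS sites of Macf1, 24 aligned to a Dst codon, 0 had a Dst site within 3 codons, and 3 had a DRACH A at the aligned base. Macf1 and Plec aligned less closely (31.6% identical residues over 4489 columns), and 3 Macf1 sites had a Plec site within 3 codons. All 3 set the plakin-repeat exon of Plec against Macf1 exons 44 and 57, which lie outside the plakin-repeat exon of Macf1, so these pairs may not be matching positions. Whether the low number in Dst goes with few Dst transcripts in these cells was not tested.

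**Figure D4:**
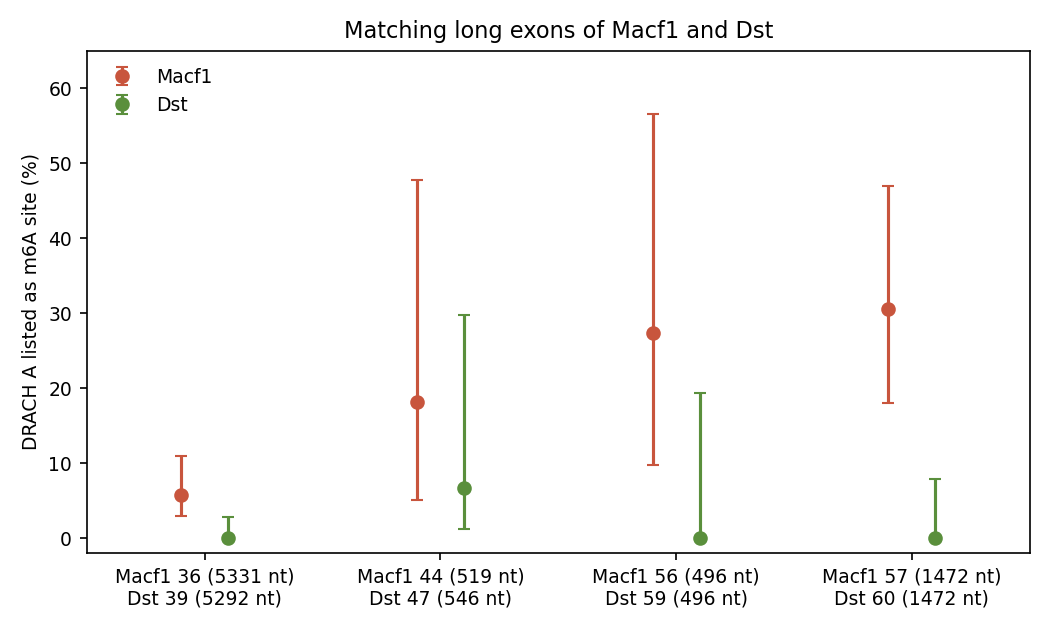
Percent of DRACH A listed as m6A sites in the 4 long exons of Macf1 that hold sites and in the matching exons of Dst, with 95% Wilson intervals and exon lengths in nt. Macf1 stands at 5.71%, 18.2%, 27.3% and 30.6% from left to right and Dst at 0, 6.67%, 0 and 0, as the numbers of sites known when the genes were chosen already set.

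The other plakins held no listed site. Of 7 plakin genes, Dsp (desmoplakin), Evpl (envoplakin), Ppl (periplakin) and Eppk1 (epiplakin), which are known from epithelia, held 0 sites, and Eppk1 did so with an exon of 11245 nt. Of 19 genes for binding partners and filament proteins, 8 held a site, beside 23.1% of all protein-coding genes, whether expressed or not. Among these, Golga4, a golgin of the trans-Golgi, held 13 sites, Axin1, a scaffold of the Wnt pathway, held 10, and Vim, the vimentin of macrophage intermediate filaments, held 5. Syne3, the nesprin that anchors plectin at the nuclear envelope, held 12 sites, of which 2 lay in exons of the transcript used. Of 13 genes for proteins with spectrin repeats or related actin-binding domains, 8 held a site, among them Flna, an actin crosslinker, with 7 sites, and Actn4, an alpha-actinin, with 6. The share of 23.1% over all protein-coding genes applies here too, and the lists were not matched to it for expression or length. Syne1, with a CDS of 26400 nt longer than that of any member, held 4.

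Genes with a long CDS differed widely in their listed shares. Of 111 protein-coding genes with a CDS of at least 10000 nt, 81 had no listed DRACH A in the CDS. Here genes without any site were kept, whether expressed or not, and only 31 of the 111 held a site. Plec stood first with 22.0% of its CDS DRACH A listed, followed by Ahnak (16.1%), Spen (10.1%), Rnf213 (8.99%), Kmt2d (6.23%) and Macf1 (4.33%), while Dst ranked 30 at 0.172%. These ranks rest on the same numbers that chose the members and carry no test.

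**Figure D5:**
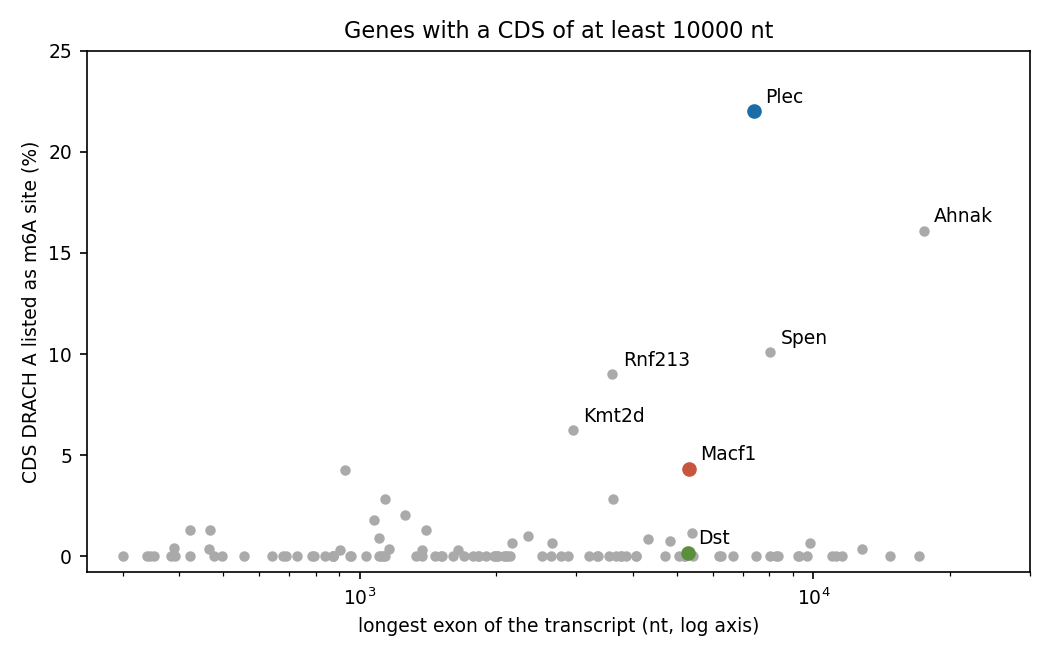
Percent of CDS DRACH A listed as m6A sites against the length of the longest exon (nt, logarithmic axis) for the 111 protein-coding genes with a CDS of at least 10000 nt, 1 point per gene. Plec lies at 22.0% with an exon of 7412 nt, Macf1 at 4.33% with 5331 nt and Dst at 0.172% with 5292 nt, and many genes with exons as long lie at 0. Genes without any site are included, whether expressed or not.

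By the spread of sites over 5 parts of the transcript, the genes most like Plec among 348 other genes with at least 10 sites were Arid1a (17 sites), Gcc1 (10) and Kbtbd2 (11), whose shares overlapped with those of Plec by 0.922, 0.922 and 0.919, where 1 is a full match. All 3 carry most sites in the CDS of the last exon, as Plec does. The genes most like Macf1 were Srrm2 (17 sites, 0.981), Gm42715 (14 sites, 0.969) and Golga4 (13 sites, 0.963), with all but 1 exonic site each in long exons before the last. For Dst, with 1 site, the measure is not informative.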

How the data were processed

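The miCLIP2 data of 3 replicates of untreated RAW264.7 cells were used as deposited. The authors mapped reads with STAR (2.7.3a) to GRCm38 with GENCODE M23, discarded reads without a unique place, removed duplicates with UMI-tools (1.0.0), used SAMtools (1.9) and bedtools (2.27.1), called peaks with PureCLIP in each replicate, kept peaks found in at least 2 replicates and scored peaks at A with m6Aboost. The model reads the 21-nt sequence, the transcript region, the strength of the signal at the site and its C-to-T transitions. The deposited unit is its score, and only scores above 0.5 are listed. A region or a motif can thus be favoured by the model itself.

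The members and gene lists were chosen with earlier results of these data known. Junction distances, look-alike windows, exact repeats and residue pairs were added after the sites had been seen. The start was read as 0-based, and positions are 1-based on GRCm38. Genes came from GENCODE M21. Sites were placed on the transcript with the longest CDS, the stop codon counted in the CDS. None of the 3 member transcripts passes a support filter of at most 3 for the transcript and at most 2 for the annotation, so other transcripts were tried. The background was all DRACH A on the longest-CDS transcripts of protein-coding genes with a site, each position once. Proteins were translated from the CDS and aligned globally (BLOSUM 62, gap penalties 11 and 1, end gaps 0.5), with a shift of up to 3 codons allowed. Named genes were the members, the fixed lists of plakins, partners and spectrin-type proteins, the 3 genes most like each member, and genes with a CDS of at least 10000 nt. Likeness is the summed smaller share over 5 transcript parts. Shares carry 95% Wilson intervals for counting error. With 1 pooled list of 1 condition no test was run. Placement was tested on simulated sites. Python 3.11.15, NumPy 2.4.6, pysam 0.24.0, Biopython 1.88 and matplotlib 3.10.9 were used. Alternatives were other minimum scores, collapsed neighbours, 1-based starts, RRACH, other transcripts and other windows.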

Additional observations from a re-analysis of the deposited data

How the results depend on the processing

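Of 90 alternatives to 35 values, 64 stayed close to the value. Close meant inside the 95% interval for shares and within 1.5 times for counts. For median scores it meant within the standard deviation of the site scores. Whether any alternative changed a direction was not assessed. At minimum scores of 0.7 and 0.9, Plec kept 41 and 3 sites and Macf1 15 and 1, and Dst had 0 at 0.9. The DRACH share of Plec was then 95.1% and 100%. The share of CDS DRACH A listed was 14.9% and 0.830% in Plec and 2.60% and 0.173% in Macf1, and it was 0 in Dst at 0.9, where the 3′ UTR of Plec stood at 3.85%. Fewer sites are listed by construction there. The share in long exons was 100% in Plec at 0.9 and in Macf1 at both scores. With an exon limit of 200 nt it was 100% in Macf1, and with 1000 nt it was 76.0% in Macf1 and 0 in Dst. The share with a neighbour was 45.3% (Plec) and 32.0% (Macf1) within 50 nt, and 93.8% and 80.0% (Macf1) within 200 nt. Reading starts as 1-based put 0% of each gene's sites at DRACH. Other transcripts left the listed shares of DRACH A in the CDS and the 3′ UTR and the share in long exons, the values for which they were tried, within their intervals, although 17 of the Macf1 sites were exonic on the transcript with the longest span among those passing the support filter, which lacks exon 36. No paired analysis was possible because 1 condition was profiled. The replicates are pooled in the deposited list, so none of them could be left out. Depth behind a site is unknown.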
